A study of Mus musculus with 19 samples.

Results

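Collagen genes were followed in epididymal white adipose tissue (eWAT), the visceral fat depot beside the mouse epididymis. The members were the genes whose symbol has the form of a numbered collagen chain (Col, a type number, a and a chain number) and that are protein coding, which gave 44 of the 24237 genes of the expression table. Of these, 11 encode fibrillar chains, 6 encode type IV chains of basement membranes and 6 encode type VI chains of beaded filaments. The others were 9 fibril-associated chains (FACIT), 4 transmembrane collagens, 3 short-chain network collagens, both multiplexins, the anchoring fibril collagen Col7a1, and Col26a1 and Col28a1. Male C57Bl6/J mice, 9 to 10 weeks of age at the start, were fed for 17 weeks on a low-fat diet (LFD, 10% of energy as fat) or a palm oil-based high-fat diet (HFD, 60% of energy as fat), each with normal (0.21% by weight) or low (0.03% by weight) magnesium oxide. The labels name no allele or drug in any group, and RNA came from eWAT as a whole, with every cell type of the depot. RNA was sequenced from 4 NormMg-LFD, 5 LowMg-LFD, 5 NormMg-HFD and 5 LowMg-HFD mice, with 1 library per mouse.

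Collagens are secreted proteins whose chains wind around each other into a rope-like helix. Fibrillar collagens pack into the tensile fibres of connective tissue, type IV forms the sheet-like network of basement membranes that surrounds each adipocyte and capillary, and type VI forms beaded filaments that link the fibres to cells. Adipose tissue lays down more of this matrix when fat cells enlarge during obesity, and the matrix is made by stromal fibroblast-like cells, adipocytes, endothelial cells and mural cells.

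Sequencing depth lay between 12986441 and 13027028 reads per mouse, of which 86.12% to 90.41% mapped. Levels are FPKM (fragments counted for a gene, divided by transcript length and by the mapped fragments of the library) as the authors computed them, a scale per length on which genes can be compared with each other. Adipocyte markers (6 of 6 detected in every mouse) summed to between 10193 and 18549 FPKM, so the defining genes of the labelled tissue were present. Some libraries stood apart. In NormMg-LFD replicate 3, 8 exocrine pancreas genes summed to 1311.8 FPKM, against 0.81 to 3.40 in the other 18 mice. In LowMg-LFD replicate 4, 5 epididymis genes summed to 121.7 FPKM, against 0 to 3.84 elsewhere. LowMg-LFD replicate 1 held the lowest value of all 19 mice for 10 of the 17 collagen genes that passed the filter described below. Without NormMg-LFD replicate 3 or without LowMg-LFD replicate 4, the number of collagen genes called stayed at 10, 0, 12 and 11 in the Mg2+ contrasts on HFD and LFD and in the HFD contrasts at normal and low Mg2+. The genes called changed in part. Omitting the first mouse, Col5a1 lost and Col14a1 gained a call with low Mg2+ on HFD. Omitting the second, Col5a2 lost and Col1a2 gained a call with HFD at low Mg2+. The interaction described below, called for Col3a1 with all mice, was lost without either mouse (limma adjusted p = 0.0879 and 0.0587). Further values without single mice stand beside the results they touch.

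Collagen mRNA was abundant and came from few genes. In a NormMg-LFD mouse the 44 genes together reached 1504 to 1687 FPKM (median 1553), which was 0.285% to 0.319% of all FPKM. Their sum was 1092 to 1547 FPKM in LowMg-LFD (median 1488), 2797 to 3396 FPKM in NormMg-HFD (median 3295) and 1809 to 2254 FPKM in LowMg-HFD (median 1979). The NormMg-HFD mice were therefore above every other mouse, and the LowMg-HFD mice lay between them and the LFD mice without overlapping either. Col3a1, the chain of type III collagen, had the highest mean in 3 of the 4 groups (285.2 FPKM in NormMg-LFD, 887.7 in NormMg-HFD, 354.2 in LowMg-HFD), while in LowMg-LFD the mean of Col4a1 (271.1 FPKM) was above that of Col3a1 (250.2 FPKM). The mice of these genes overlapped in every group but NormMg-HFD. Because this is whole tissue, fewer cells of a type and less RNA per cell cannot be told apart.

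A gene was tested when at least 1 diet group had a mean above 8 FPKM and at least 4 mice of that group were above 8 as well. This kept 8336 genes and 17 collagen genes: 6 of the 11 fibrillar chains, 2 of 6 type IV chains, 4 of 6 type VI chains, 2 of 9 FACITs, both multiplexins and Col26a1. A further 8 collagen genes passed at an FPKM of 1, and 19 did not. Col16a1 passed through the HFD groups only and Col26a1 through LowMg-HFD only, and Col6a5 passed in every group but NormMg-LFD. All 3 genes had a mean over 8 FPKM in NormMg-LFD too (11.3, 8.27 and 33.8 FPKM) and failed there because 1 of the 4 mice was below 8. Differences are on the log2(FPKM + 1) scale, are given with a standard error (SE), and were tested in 1 limma fit over all 19 mice, with two-sided p values adjusted over the 8336 genes by the Benjamini-Hochberg method and a threshold of 0.05. The 5 contrasts share groups: NormMg-HFD is the reference for low Mg2+ on HFD and the test group for HFD at normal Mg2+, so that their fold changes are not independent of each other.

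**Figure D1:**
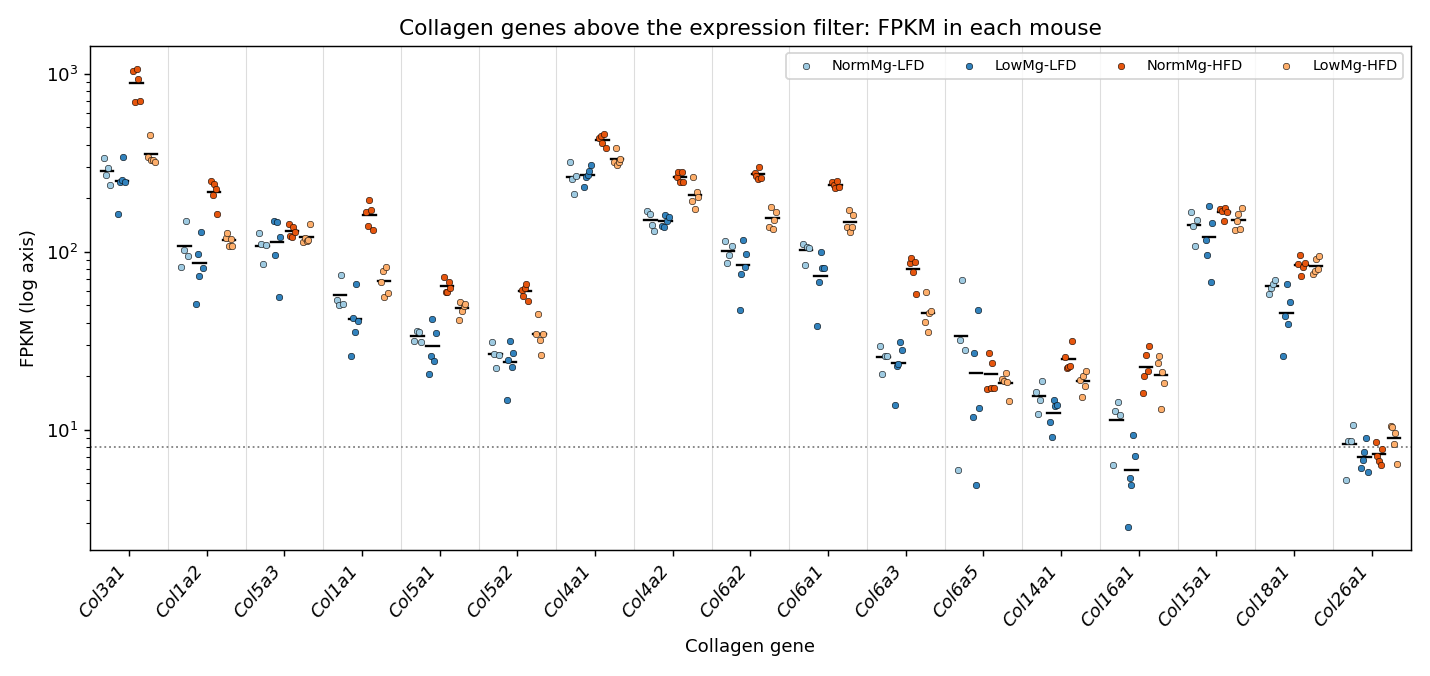
FPKM of the 17 collagen genes that passed the filter (vertical log axis), with 1 point per mouse, a black bar at the group mean and a dotted line at an FPKM of 8; the colours mark the 4 diet groups. Col3a1 in NormMg-HFD stands highest, at 699 to 1068 FPKM, and Col5a3 and Col15a1 show groups that overlap.

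The members lie in several clusters in the mouse genome (GRCm38, GENCODE M21 gene models). Col3a1 (chr1:45311538-45349706, plus strand) and Col5a2 (chr1:45374321-45503282, minus strand) face each other tail to tail, 24614 bases apart. Col4a1 (chr8:11198423-11312826, minus strand) and Col4a2 (chr8:11312805-11449287, plus strand) are head to head, and the gene models overlap by 22 bases. Col4a4 and Col4a3 on chromosome 1 start 71 bases apart, Col4a6 and Col4a5 on chromosome X start 1308 bases apart, and both pairs are head to head as well. Col6a2 (chr10:76595762-76623630) and Col6a1 (chr10:76708792-76726168) follow each other on the minus strand with 85161 bases between them.

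The 250 bases before the start are shown for 5 genes whose RefSeq and GENCODE starts coincide: fibrillar and type VI genes that changed with diet, and Col5a3, a fibrillar gene that did not pass the test in any contrast. They are GRCm38.p6 sequences from RefSeq, printed 5′ to 3′ on the strand of the gene, for Col3a1 (chr1:45311288-45311537, plus strand), Col5a1 (chr2:27886175-27886424, plus strand), Col5a3 (chr9:20815068-20815317, minus strand), Col6a2 (chr10:76623631-76623880, minus strand) and Col6a3 (chr1:90843972-90844221, minus strand). Capitals mark 3 motifs, searched on both strands: the CCAAT box, the letters GGGCGG known as a GC box, and a TATA box spelled TATAAA. No matches overlapped here.
Col3a1: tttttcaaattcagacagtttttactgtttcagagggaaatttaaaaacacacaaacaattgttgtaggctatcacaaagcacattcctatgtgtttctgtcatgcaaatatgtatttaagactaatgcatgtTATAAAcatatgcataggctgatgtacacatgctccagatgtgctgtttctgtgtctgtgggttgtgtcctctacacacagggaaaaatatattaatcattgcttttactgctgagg
Col5a1: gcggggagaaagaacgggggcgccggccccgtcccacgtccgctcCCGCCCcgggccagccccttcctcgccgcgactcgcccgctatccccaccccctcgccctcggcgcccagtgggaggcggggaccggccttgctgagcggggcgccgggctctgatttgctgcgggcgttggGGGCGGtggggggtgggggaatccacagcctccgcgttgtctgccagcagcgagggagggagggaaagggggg
Col5a3: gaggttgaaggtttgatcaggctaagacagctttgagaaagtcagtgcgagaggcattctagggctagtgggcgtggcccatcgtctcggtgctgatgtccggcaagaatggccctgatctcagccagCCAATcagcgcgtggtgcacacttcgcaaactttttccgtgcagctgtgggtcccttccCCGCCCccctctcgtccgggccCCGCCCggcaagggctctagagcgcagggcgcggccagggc
Col6a2: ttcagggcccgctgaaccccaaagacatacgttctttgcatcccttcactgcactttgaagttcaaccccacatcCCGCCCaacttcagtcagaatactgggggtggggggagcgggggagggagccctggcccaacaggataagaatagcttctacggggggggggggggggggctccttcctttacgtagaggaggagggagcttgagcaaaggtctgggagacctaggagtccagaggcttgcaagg
Col6a3: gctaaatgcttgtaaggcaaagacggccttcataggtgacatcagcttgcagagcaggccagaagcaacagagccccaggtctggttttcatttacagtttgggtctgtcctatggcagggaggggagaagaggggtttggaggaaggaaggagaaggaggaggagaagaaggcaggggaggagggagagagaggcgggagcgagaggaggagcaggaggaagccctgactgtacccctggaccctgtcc
Col3a1 was A and T rich (35.2% G and C) and held TATAAA with its first base 117 bases before the start, whereas Col5a1 reached 76.4% G and C and held GGGCGG at 73 bases and its reverse at 205 bases. Col5a3 held the reverse of GGGCGG at 41 and at 63 bases and CCAAT at 122 bases, Col6a2 held the reverse of GGGCGG at 175 bases, and Col6a3 held none of the 3. Over 32851 windows of the same length, 33.8% held the CCAAT box, 32.7% the GC box and 12.4% the TATA box. Among the 35 collagen genes with a window the counts were 13 (37.1%), 21 (60%) and 5 (14.3%). Here a gene counted when any of its windows held the motif, so these shares per gene are not directly comparable with the shares per window. These matches describe letters and no more.

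On HFD, low Mg2+ went with lower levels of 5 of 6 tested fibrillar genes, both tested type IV genes and 3 of 4 tested type VI genes. Comparing LowMg-HFD mice with NormMg-HFD mice, 10 of the 17 members were lower and 0 were higher, where 12.9% of all genes tested were lower and 5.58% higher. The median log2 difference of the members was -0.39, against -0.04 over all genes tested. For 8 of the 17, every LowMg-HFD mouse was below every NormMg-HFD mouse, against 9.56% of all genes. Without LowMg-HFD replicate 4 the count was 9. Without NormMg-HFD replicate 3 it was 9 as well, and the genes called over the whole table dropped from 1542 (1077 lower, 465 higher) to 945 (682 lower, 263 higher).

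Among the fibrillar genes, 5 of 6 fell. Col3a1, which forms fine fibrils together with type I, was at 1032.5, 699, 1067.6, 934.2 and 705.2 FPKM in NormMg-HFD and at 343.1, 452.4, 325.9, 327.9 and 321.6 FPKM in LowMg-HFD. The groups were far apart, and LowMg-HFD replicate 2 lay above the other 4 mice of its group. The log2 difference was -1.31 (SE 0.17, limma adjusted p = 0.000661), a ratio of 0.403. Col1a1, the major chain of type I collagen, was at 166.6, 139.2, 196.5, 171.6 and 132.1 FPKM in NormMg-HFD and at 67.9, 77.9, 55.8, 82.2 and 58.8 FPKM in LowMg-HFD. No mouse overlapped, with a log2 difference of -1.22 (SE 0.19, limma adjusted p = 0.00178).

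The partner chain of type I, Col1a2, was at 248.9, 208.7, 240.2, 223.9 and 163.5 FPKM in NormMg-HFD and at 119.8, 127.8, 107.3, 117.8 and 107.2 FPKM in LowMg-HFD, a log2 difference of -0.89 (SE 0.19, limma adjusted p = 0.00453). Col5a2 and Col5a1, chains of type V collagen that sit inside type I fibrils and set their width, differed by -0.80 (SE 0.16, limma adjusted p = 0.00355) and -0.41 (SE 0.14, limma adjusted p = 0.0464). The call for Col5a1 was marginal: it was lost in 21 of 28 alternative settings, with adjusted p between 0.0141 and 0.11 over all of them. Col5a3, a further chain of type V, was at 120.4 to 143.3 FPKM in NormMg-HFD and 113.4 to 144 FPKM in LowMg-HFD, and its difference of -0.11 (95% interval -0.51 to 0.30) did not pass the test.

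Of the type IV genes, 2 of 6 were tested and both fell. Col4a1, a chain of the basement membrane network, was at 437.8, 445.6, 410.4, 457.5 and 382.7 FPKM in NormMg-HFD and at 318.3, 382.9, 308.8, 320.8 and 332.8 FPKM in LowMg-HFD. The highest LowMg-HFD mouse just passed the lowest NormMg-HFD mouse. Its log2 difference was -0.36 (SE 0.10, limma adjusted p = 0.0197), and that of its partner Col4a2 was -0.34 (SE 0.10, limma adjusted p = 0.0218). Both calls were lost with quantile normalization, where the differences themselves were smaller, at -0.19 and -0.22 (limma adjusted p = 0.234 and 0.11), and when each mouse was centred on its median gene, at -0.30 and -0.28 (0.0707 and 0.0679). They were also lost without NormMg-HFD replicate 4, at -0.33 and -0.32 (0.0524 and 0.0564), and without LowMg-HFD replicate 3, at -0.33 and -0.28 (0.0537 and 0.0719).

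The type VI genes Col6a1, Col6a2 and Col6a3, whose products assemble 1 to 1 to 1 into the beaded filament unit, all fell. Col6a2 was at 278.4, 266.3, 257.9, 298.4 and 260.1 FPKM in NormMg-HFD and at 138.2, 177.6, 134.6, 151 and 167.9 FPKM in LowMg-HFD, with no overlap and a log2 difference of -0.83 (SE 0.17, limma adjusted p = 0.00329). Col6a1 was at 228 to 249.9 FPKM in NormMg-HFD and at 129.5 to 171.5 FPKM in LowMg-HFD, a difference of -0.70 (SE 0.17, limma adjusted p = 0.00916). Col6a3, whose C-terminal fragment is released as endotrophin, was at 86.8, 92.3, 77, 88 and 58.2 FPKM and at 40.4, 59.2, 35.2, 45.2 and 46.5 FPKM, a difference of -0.82 (SE 0.18, limma adjusted p = 0.00495). Its groups met only where LowMg-HFD replicate 2 passed NormMg-HFD replicate 5. Col6a5, a chain that can take the place of Col6a3 in the filament unit, showed -0.13 (95% interval -1.17 to 0.92), an interval too wide to say more.

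The remaining members did not pass the test. The FACIT Col14a1, which coats collagen fibrils, was at 25.5, 22.3, 22.4, 22.8 and 31.7 FPKM in NormMg-HFD and at 19, 15.3, 20, 17.7 and 21.4 FPKM in LowMg-HFD. These groups did not overlap, and the difference of -0.39 (SE 0.14) had a limma adjusted p of 0.0536. Col16a1, a further FACIT, differed by -0.15 (95% interval -0.67 to 0.38). For the multiplexins of basement membrane zones the values were -0.15 for Col15a1 (95% interval -0.54 to 0.24) and -0.02 for Col18a1 (95% interval -0.36 to 0.33), the gene that encodes the precursor of endostatin; the sign for Col18a1 flipped with either scaling alternative. Col26a1 differed by 0.26 (95% interval -0.08 to 0.61).

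On LFD, the same step in dietary Mg2+ gave 0 calls among the 17 collagen genes and among all 8336 genes by limma (0% of genes), with 4 of the 17 members and 6.56% of all genes at an unadjusted p under 0.05. That all-gene count of 547 moved both ways on leaving out 1 mouse. It was 338 without LowMg-LFD replicate 1 and 354 without NormMg-LFD replicate 4. Omitting NormMg-LFD replicate 2 gave 601, and omitting LowMg-LFD replicate 4, the mouse with epididymis RNA, gave 722. No member had groups that did not overlap, against 1.79% of all genes. The median log2 difference of the members was -0.28, against -0.06 over all genes tested, and the values ran from -0.86 to 0.05. Col18a1 was at 57.8, 62.5, 65.5 and 69.8 FPKM in NormMg-LFD and at 25.9, 43.6, 65.6, 39 and 52.3 FPKM in LowMg-LFD, a difference of -0.55 (SE 0.17, limma adjusted p = 0.74). Col16a1 was at 6.3, 12.7, 14.2 and 12.1 FPKM in NormMg-LFD and at 2.8, 5.4, 4.9, 9.3 and 7.2 FPKM in LowMg-LFD, a difference of -0.86 (SE 0.27, limma adjusted p = 0.74). In both genes the groups overlapped, and LowMg-LFD replicate 1 was the lowest.

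The difference between the Mg2+ effect on HFD and that on LFD was tested as an interaction. It passed for 1 of the 17 members, Col3a1 (limma adjusted p = 0.0447), where 0.756% of all genes were lower and 0.492% higher by this term. Over all genes the interaction count was unstable: it ran from 0 to 476 genes on leaving out 1 mouse and was 0 without any 1 of 8 mice. The Mg2+ difference in Col3a1 was -1.31 on HFD and -0.22 on LFD, so that the interaction was -1.10 (SE 0.24). This call lay close to the threshold: 19 of 27 alternatives put it above 0.05, with adjusted p up to 0.112, and it was lost without 14 of the 19 mice taken 1 at a time. Without LowMg-LFD replicate 1, the mouse with low collagen levels, the interaction passed for 4 members, namely Col3a1 (-1.24), Col6a3 (-0.86), Col5a2 (-0.79) and Col6a2 (-0.69). For the other members with all mice, an effect called on HFD and not on LFD was not shown to differ between the diets.

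**Figure D2:**
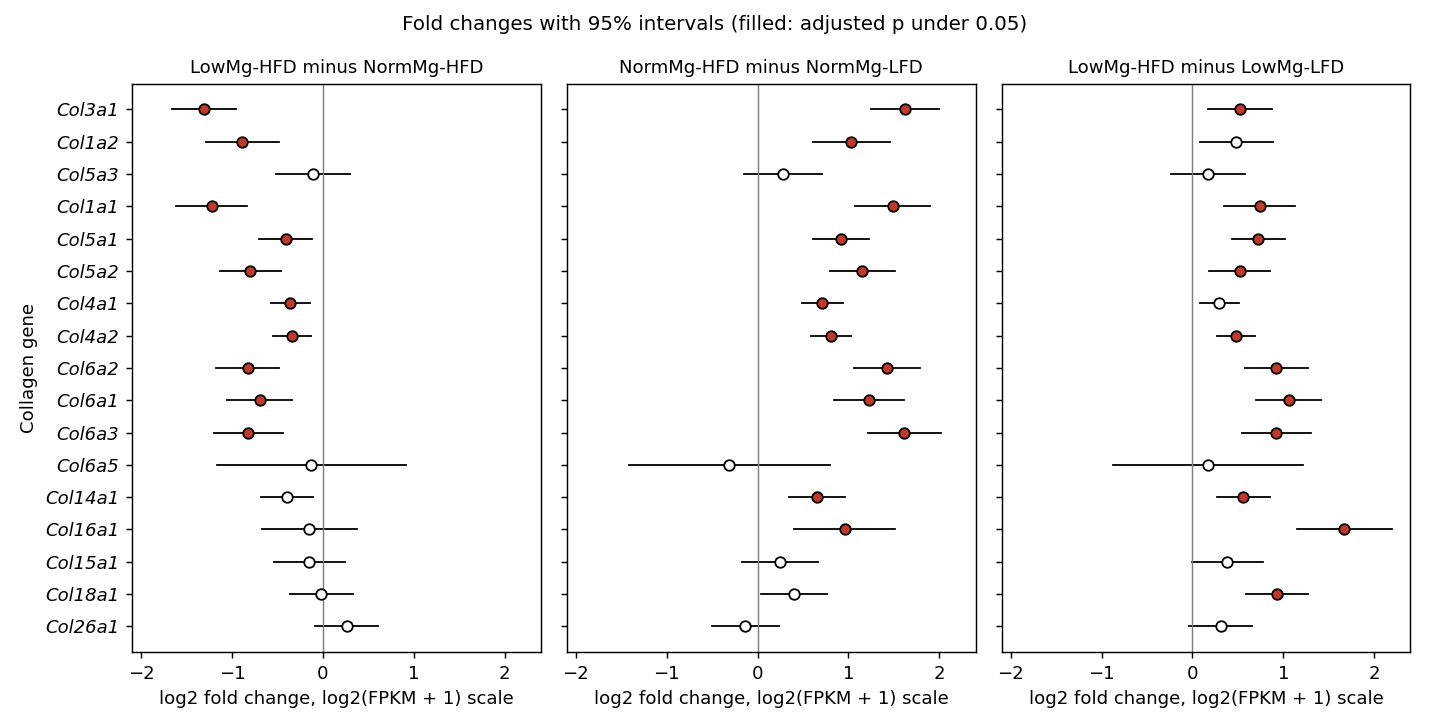
Log2 differences of the 17 tested collagen genes on the log2(FPKM + 1) scale in 3 contrasts, with 95% intervals from limma as horizontal lines; filled points have an adjusted p under 0.05. The left panel holds 10 filled points below 0, the middle panel 12 above 0 and the right panel 11 above 0.

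At normal Mg2+, HFD went with higher levels of 5 of 6 tested fibrillar genes, both tested type IV genes and 3 of 4 tested type VI genes. In NormMg-HFD against NormMg-LFD, 12 of 17 members were higher and 0 lower, where 24.6% of all genes were higher and 12.8% lower. Leaving aside Col16a1 and Col26a1, 11 of 15 were higher. For 13 of the 17 every NormMg-HFD mouse was above every NormMg-LFD mouse, against 21.5% of all genes. The median log2 difference of the members was 0.92, against 0.07 over all genes. Col3a1 was at 337.1, 269.8, 295.8 and 238.1 FPKM in NormMg-LFD, below every NormMg-HFD value listed above, and rose by 1.62 (SE 0.18, limma adjusted p = 2.12e-06). Col6a3, at 29.4, 20.6, 25.8 and 26 FPKM in NormMg-LFD, rose by 1.61 (SE 0.19, limma adjusted p = 3.69e-06).

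Col1a1, at 53.3, 50.4, 74.3 and 50.5 FPKM in NormMg-LFD, rose by 1.48 (SE 0.20, limma adjusted p = 1.13e-05), with NormMg-LFD replicate 4 standing above the other 3. The other calls were Col6a2 (1.42), Col6a1 (1.23), Col5a2 (1.15), Col1a2 (1.03), Col16a1 (0.96), Col5a1 (0.92), Col4a2 (0.81), Col4a1 (0.71) and Col14a1 (0.66). The count of 12 was unchanged without NormMg-LFD replicate 3, the mouse with pancreas RNA. Col18a1 was at 72.7 to 95.6 FPKM in NormMg-HFD, above all NormMg-LFD mice, and its difference of 0.40 (SE 0.17) had a limma adjusted p of 0.0818. It passed in 4 of 28 alternatives. These were only the groups compared (limma adjusted p = 0.0061), the replicate number as a block (0.0347), and omission of LowMg-LFD replicate 1 (0.0173) or replicate 3 (0.0384). LowMg-LFD mice enter this contrast only through the shared estimate of the spread. Col5a3 (0.28, 95% interval -0.15 to 0.71), Col15a1 (0.25, 95% interval -0.17 to 0.67), Col6a5 (-0.31, 95% interval -1.42 to 0.80) and Col26a1 (-0.14, 95% interval -0.50 to 0.23) did not pass.

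At low Mg2+, HFD went with higher levels of 11 of the 17 members and lower levels of 0, where 12.4% of all genes were higher and 3.51% lower. In 7 of the 17 every LowMg-HFD mouse was above every LowMg-LFD mouse, against 6.99% of all genes. The median difference was 0.53, against 0.10 over all genes. Over all genes the 1329 calls dropped to 873 without LowMg-HFD replicate 1, 807 without LowMg-HFD replicate 2, 835 without LowMg-LFD replicate 1 and 725 with only the groups compared. In each of these settings 9 members were higher. Leaving aside Col16a1 and Col26a1, which passed the filter through HFD groups only, 10 of 15 were higher. Col6a1 (1.06), Col18a1 (0.93), Col6a3 (0.92) and Col6a2 (0.92) rose with no overlap between the groups. Col16a1 was at 23.6, 26, 13, 21.1 and 18.3 FPKM in LowMg-HFD, above the LowMg-LFD values given above, with a log2 difference of 1.67 (SE 0.25, limma adjusted p = 0.000624) in a gene that no LFD group brought through the filter. The FACIT Col14a1 rose by 0.56 (SE 0.14, limma adjusted p = 0.00974), also without overlap.

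Among the fibrillar genes the rises at low Mg2+ were 0.74 for Col1a1, 0.73 for Col5a1, 0.53 for Col3a1 and 0.52 for Col5a2, each with overlapping mice. Col1a2, at 50.8 to 129.9 FPKM in LowMg-LFD and 107.2 to 127.8 FPKM in LowMg-HFD, did not pass (0.48, SE 0.19, limma adjusted p = 0.0953), and passed without LowMg-LFD replicate 4, the mouse with epididymis RNA (limma adjusted p = 0.0185). The calls for Col3a1 and Col5a2 were lost in 10 and 9 of 28 alternatives, among them leaving out LowMg-LFD replicate 1 (limma adjusted p = 0.122 and 0.101) or LowMg-HFD replicate 2 (0.117 and 0.108). Col4a2 rose by 0.48 (SE 0.10, limma adjusted p = 0.00335), and Col4a1 showed 0.30 (SE 0.10, limma adjusted p = 0.054). Col15a1 (0.38), Col26a1 (0.31), Col6a5 (0.17) and Col5a3 (0.17) did not pass.

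The scale of the whole transcriptome differed slightly between groups. Centring each mouse on its median gene moved the median of all genes in the HFD contrast at low Mg2+ from 0.10 to -0.01. Of all calls, the share lower with low Mg2+ on HFD went from 69.8% to 56.7%, the share higher with HFD went from 65.8% to 50.1% at normal Mg2+ and from 78% to 52.8% at low Mg2+. The members kept their direction in every call under this centring, with 7, 12 and 9 calls in place of 10, 12 and 11.

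The 3 large classes can also be read as sums over their members. The fibrillar sum was 553.6 to 666.1 FPKM in NormMg-LFD (median 631.7), 428.4 to 643.7 in LowMg-LFD (median 553.6), 1248 to 1749 in NormMg-HFD (median 1606) and 683.3 to 876.3 in LowMg-HFD (median 722.9). The type IV sum was 378.7 to 494.1 FPKM, 376.9 to 473.8, 637 to 746.4 and 491 to 650.8 in the same order. The type VI sum was 229.5 to 308.9 FPKM, 114.7 to 248.6, 569.9 to 664.2 and 325.3 to 431.3. In each class the NormMg-HFD mice were above those of NormMg-LFD and LowMg-LFD, and only in type IV did a LowMg-HFD mouse reach into the NormMg-HFD range.

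Between LowMg-HFD and NormMg-HFD the log2 difference in these sums was -1.02 for fibrillar, -0.74 for type VI and -0.35 for type IV genes, where the SD among mice within groups was 0.19, 0.13 and 0.13. NormMg-HFD sums were 2.44, 2.30 and 1.64 times those of NormMg-LFD in the same order of classes. The sums are carried by their largest members: without Col3a1 the fibrillar log2 difference was -0.70 with low Mg2+ on HFD and 0.92 with HFD at normal Mg2+. No test was made of these sums or of a difference between classes. By the mean of log2(FPKM + 1) over all genes of a class, which gives scarce chains the same weight as abundant ones, fibrillar and type VI genes were close to each other, at -0.45 and -0.41 with low Mg2+ on HFD and 0.59 and 0.53 with HFD at normal Mg2+. That mean for type IV genes had the opposite sign in both contrasts, at 0.10 with low Mg2+ on HFD and -0.28 with HFD at normal Mg2+.

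**Figure D3:**
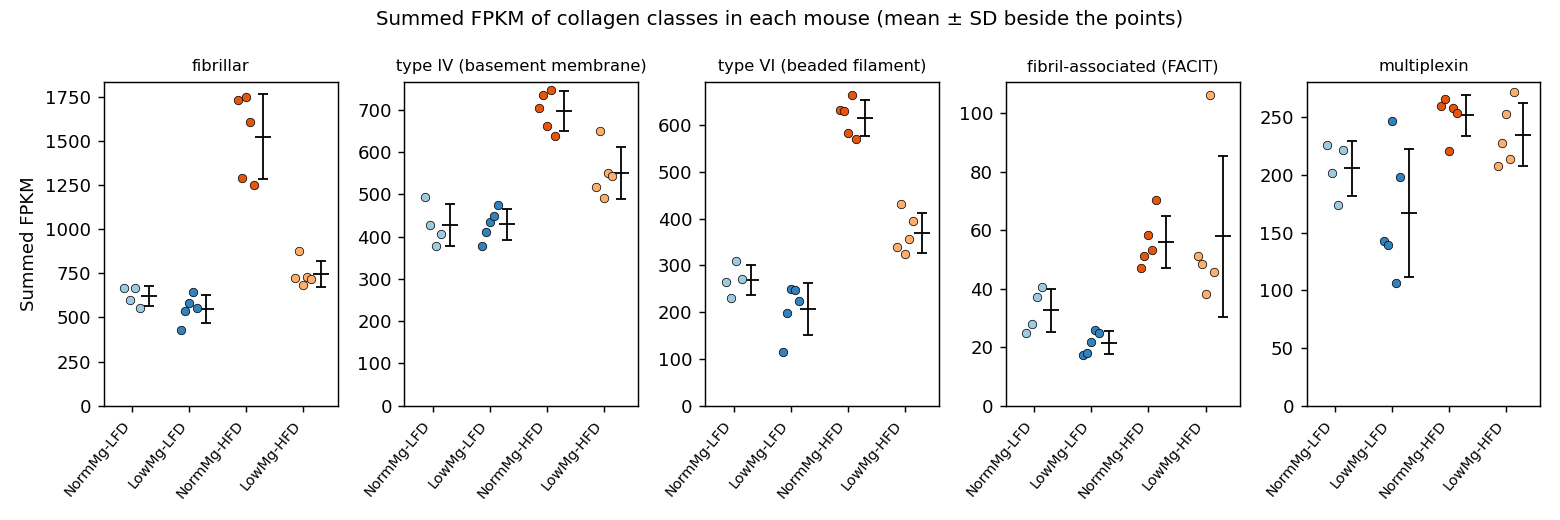
Summed FPKM of 5 collagen classes (vertical axes from 0, 1 panel per class), with 1 point per mouse by diet group and the mean ± SD beside the points. The fibrillar sum of NormMg-HFD mice, 1248 to 1749 FPKM, lies above all other mice, and 1 LowMg-HFD mouse stands apart in the FACIT panel at 106.1 FPKM.

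The make-up of collagen mRNA differed accordingly. Fibrillar genes made up 43% to 53.1% of collagen FPKM in NormMg-HFD and 36.2% to 38.9% in LowMg-HFD, with no overlap, while the LFD groups had 36.6% to 41.8% (NormMg-LFD) and 37.2% to 43.1% (LowMg-LFD). Type IV genes made up 20.1% to 24.5% in NormMg-HFD and 27.1% to 28.9% in LowMg-HFD, also with no overlap. The type VI share was 17.7% to 21% and 18% to 19.8%, and these ranges overlapped. Col3a1 alone made up 23.3% to 32.4% of collagen FPKM in NormMg-HFD and 16.2% to 20.1% in LowMg-HFD.

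Chains that assemble together can be compared as ratios within a mouse. Type I collagen has Col1a1 and Col1a2 products in the same helix, and the ratio of Col1a1 to Col1a2 was 0.49 to 0.65 in NormMg-LFD, 0.44 to 0.51 in LowMg-LFD, 0.67 to 0.82 in NormMg-HFD and 0.52 to 0.70 in LowMg-HFD. It was therefore highest in NormMg-HFD, with LowMg-HFD replicate 4 reaching into that range. The ratio of Col4a1 to Col4a2, the head-to-head pair, was 1.5 to 2.02, 1.65 to 1.96, 1.54 to 1.67 and 1.46 to 1.78 in the same order, and all 4 ranges overlapped. For Col6a1 to Col6a2 the values were 0.96 to 1.12, 0.81 to 0.99, 0.84 to 0.90 and 0.91 to 1.00. The 2 HFD groups did not overlap in that ratio, and the LFD groups did.

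**Figure D4:**
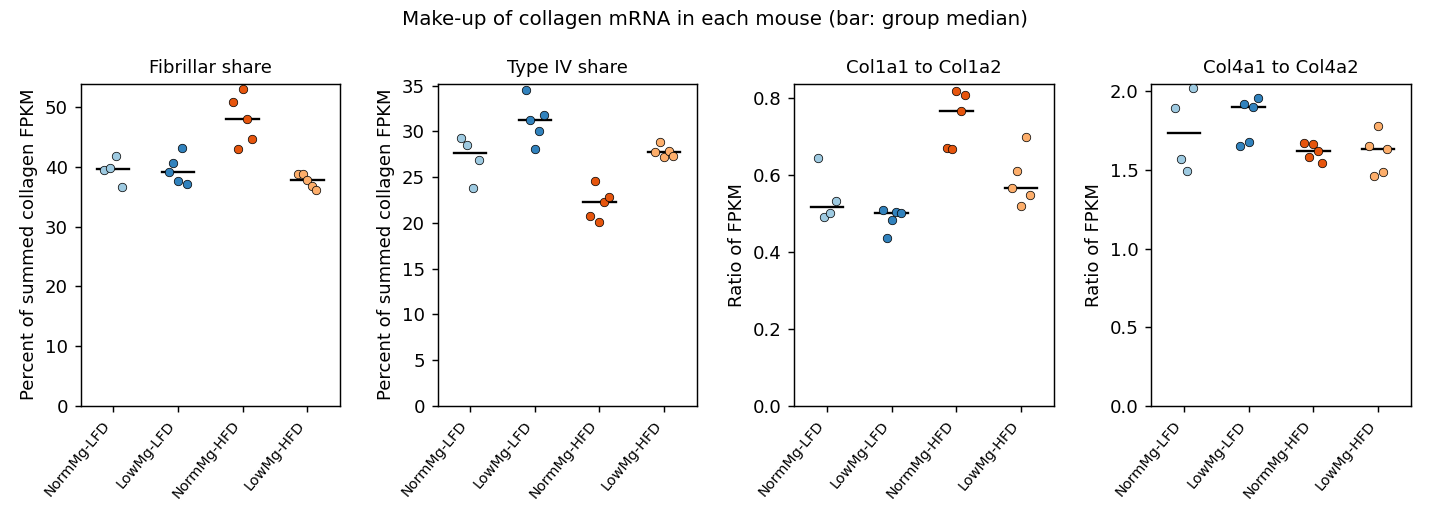
Share of collagen FPKM from fibrillar and from type IV genes, and FPKM ratios of Col1a1 to Col1a2 and Col4a1 to Col4a2 (vertical axes from 0), with 1 point per mouse by diet group and a bar at the group median. Fibrillar shares of 43% to 53.1% in NormMg-HFD lie above the 36.2% to 38.9% of LowMg-HFD, and the Col4a1 to Col4a2 ratios overlap in all 4 groups.

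Collagen genes below the filter held 8 members over an FPKM of 1. In a fit over the 13454 genes that passed at this level, Col8a1, a network collagen of vessel walls and of Descemet's membrane, was at 5.4 to 10.1 FPKM in NormMg-HFD, 1.96 to 3.4 in NormMg-LFD, 1.75 to 2.4 in LowMg-LFD and 2.3 to 3.8 in LowMg-HFD. It rose with HFD at normal Mg2+ by 1.18 (SE 0.17, limma adjusted p = 4.24e-05) and fell with low Mg2+ on HFD by 0.99 on the log2 scale (SE 0.16, limma adjusted p = 0.00235). Col12a1, a FACIT of tension-bearing tissue, was at 4.7 to 8.8 FPKM in NormMg-HFD, 0.98 to 2.2 in NormMg-LFD, 1.09 to 1.67 in LowMg-LFD and 3.2 to 6.1 in LowMg-HFD. It rose with HFD by 1.72 at normal Mg2+ and by 1.18 at low Mg2+ and fell by 0.60 with low Mg2+ on HFD (limma adjusted p = 0.0395). In this fit 8.95% of genes were lower with low Mg2+ on HFD, and with HFD 19.2% were higher at normal Mg2+ and 8.24% at low Mg2+.

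Col27a1 (1.2 to 3.85 FPKM over all 19 mice), Col23a1 (0.99 to 4.08), Col28a1 (1.21 to 4.75), Col6a6 (2.91 to 10.1) and Col4a5 (2.76 to 11.64) gave 0 calls in the 5 contrasts of the fit at FPKM 1. Col4a6 was at 1.15, 2.07, 5.74 and 2.30 FPKM in NormMg-LFD and at 0.38, 1.18, 0.65, 0.51 and 0.81 FPKM in NormMg-HFD, and fell with HFD at normal Mg2+ by 1.05 on the log2 scale (SE 0.28, limma adjusted p = 0.00771), where 10.8% of genes were lower. The groups overlapped, with 1 NormMg-LFD mouse in the upper NormMg-HFD range. Col4a4 was at 0.84 to 6.4 FPKM in NormMg-LFD and 0.31 to 0.77 in NormMg-HFD, and Col4a3 at 0.80 to 3.3 and 0.08 to 0.57 FPKM; neither passed a filter. Mesothelial markers, 6 genes none of which was at 0 in any mouse, moved in the same sense: they summed to 37.2 to 109.6 FPKM in NormMg-LFD, 21.2 to 61.9 in LowMg-LFD, 10.2 to 24 in NormMg-HFD and 20.7 to 49.6 in LowMg-HFD. Only Krt19 of them passed the filter, and it was lower with HFD at normal Mg2+ (-1.86, limma adjusted p = 0.00278). Mouse by mouse within NormMg-LFD, the mesothelial sum was highest in replicate 5, at 109.6 FPKM against 52.2 in replicate 4. Col4a6, Col4a4 and Col4a3 were highest in replicate 4 of that group. The part of mesothelial cells in the type IV values was not tested.

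The 19 members that did not reach an FPKM of 1 in enough mice peaked in a few libraries. Of all 27 members below the filter of 8, 9 had their highest value in NormMg-LFD replicate 4, among them Col4a3, Col4a4, Col4a5, Col4a6, Col6a6 and Col8a2. Another 9 had it in LowMg-HFD replicate 4. Col22a1, a FACIT of tissue junctions, was at 50.6 FPKM in that mouse and at 0.05 to 5.04 FPKM in the other 18, and Col20a1 was at 9.3 FPKM against 0.32 to 1.8. Chains known from cartilage were low: Col2a1 was listed at 0 in 12 mice and reached 1.12 FPKM in LowMg-HFD replicate 4, Col9a2 was listed at 0 in 18 mice, and Col10a1 did not pass 0.22 FPKM. Col9a1 reached 0.45 FPKM, Col11a1 0.58 FPKM and Col9a3 3.0 FPKM, while Col11a2 was above 0 in every mouse, at 0.21 to 1.29 FPKM. The highest single values of the rest were 6.56 FPKM for Col8a2, 2.86 for Col7a1, 1.45 for Col13a1, 1.38 for Col6a4, 0.93 for Col25a1, 0.70 for Col17a1, 0.38 for Col24a1 and 0.20 for Col19a1.

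**Figure D5:**
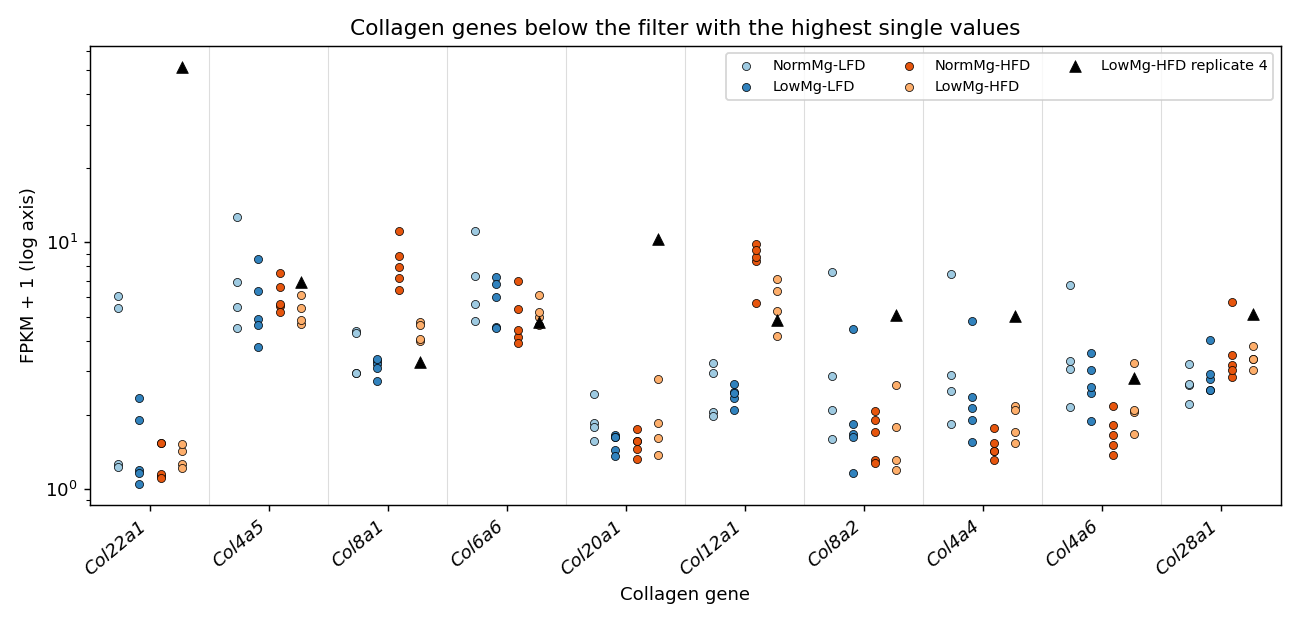
FPKM + 1 (vertical log axis) of the 10 collagen genes below the filter with the highest single values, with 1 point per mouse in the 4 diet groups and black triangles for LowMg-HFD replicate 4. Col22a1 at 50.6 FPKM and Col20a1 at 9.3 FPKM stand apart in that mouse, while Col8a1 and Col12a1 are highest in NormMg-HFD.

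Genes that act on collagen chains were read from a fixed list, and the counts here and in the next paragraph are of its genes that passed the filter. Other listed genes, among them Tll1, Adamts3 and Loxl4, did not pass and were not tested. Of 16 genes for chain modification and folding, 7 fell and 0 rose with low Mg2+ on HFD, where 12.9% of all genes were lower and 5.58% higher. They included Serpinh1, the collagen chaperone HSP47 (-0.57, limma adjusted p = 0.0358), Plod1, a lysyl hydroxylase (-0.40, limma adjusted p = 0.0113), and Colgalt1, which adds galactose to hydroxylysine (-0.60, limma adjusted p = 0.00421). Of 4 genes for removal of the propeptides, 3 fell, namely Pcolce (-0.90), Adamts2 (-0.36) and Bmp1 (-0.40), and of 3 cross-linking genes 2 fell, namely Lox (-0.55) and Loxl2 (-0.85). With HFD at normal Mg2+ 8 of the 16, 4 of the 4 and 3 of the 3 rose and 0 fell, where 24.6% of all genes were higher. With HFD at low Mg2+ 3, 2 and 2 rose and 0 fell, where 12.4% of all genes were higher, and 3 of 16 is near that share.

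Of 6 receptor and uptake genes, Itga1, the collagen-binding integrin chain, was higher with low Mg2+ on HFD (0.47, limma adjusted p = 0.0173), and Lair1, an inhibitory collagen receptor of immune cells (-1.57, limma adjusted p = 0.00409), and Mrc2, an endocytic receptor for collagen (-1.03, limma adjusted p = 0.0197), were lower. With HFD 3 of the 6 rose and 0 fell at normal Mg2+ (Mrc2 2.74, Lair1 2.15, Itgb1 0.56), and 3 rose and 0 fell at low Mg2+ (Mrc2 1.72, Ddr1 0.85, Itgb1 0.44). Of 4 fibril-binding proteoglycans, Lum (-1.40, limma adjusted p = 0.000661) and Bgn (-0.71, limma adjusted p = 0.00302) fell with low Mg2+ on HFD, while Fmod, at 0.66, did not pass (limma adjusted p = 0.171). With HFD at normal Mg2+ Lum (2.04) and Bgn (1.05) rose and Fmod fell (-1.40, limma adjusted p = 0.00377), and at low Mg2+ Lum (0.63) and Bgn (0.70) rose. The shares over all genes called higher are given with the lists above, and 12.8% of all genes were lower with HFD at normal Mg2+. Of these lists, Lum alone had an interaction past the threshold (-1.41, limma adjusted p = 0.0343), a call lost in 12 of 27 alternatives, the replicate block among them, with adjusted p up to 0.0815. On LFD 0 of these 33 genes were called with low Mg2+, as for all 8336 genes.

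Markers of other cell types were read against the shares over all genes: 5.58% higher and 12.9% lower with low Mg2+ on HFD, 24.6% and 12.8% with HFD at normal Mg2+, and 12.4% and 3.51% with HFD at low Mg2+. Where 1 of 6 genes of a list was called, that count alone is no sign of movement of the list. All 6 macrophage markers were detected in every mouse, and their sum was 128.3 to 172.2 FPKM in NormMg-LFD, 97.1 to 203.4 in LowMg-LFD, 505.2 to 842.4 in NormMg-HFD and 169.7 to 453.9 in LowMg-HFD. All 6 were lower with low Mg2+ on HFD and all 6 were higher with HFD at normal Mg2+, while 4 of 6 were higher with HFD at low Mg2+. Adgre1 also had an interaction of -1.72 (limma adjusted p = 0.0447), a call lost in 20 of 27 alternatives, with adjusted p up to 0.12. The 6 stromal progenitor markers, among them Pdgfra and Dpt, gave 0 calls in any contrast, at a sum of 379 to 435.4, 281.2 to 455.3, 447.7 to 550.7 and 376.1 to 492.4 FPKM. Of 6 adipocyte markers 3 were higher with low Mg2+ on HFD and 4 were lower with HFD at normal Mg2+. Of 6 endothelial markers 1 was higher and of 6 mural markers 1 was lower with low Mg2+ on HFD. With HFD at normal Mg2+ 1 endothelial marker was lower, and 2 mural markers were lower and 1 higher, and with HFD at low Mg2+ 1 of each was higher. Of 4 Schwann markers only Mbp passed the filter, and it was higher with HFD at normal (0.61, limma adjusted p = 0.00516) and low Mg2+ (0.59, limma adjusted p = 0.0117). The part of these cell types in the collagen differences was not tested.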

How the data were processed

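RNA from eWAT of 19 mice in 4 diet groups was sequenced, 1 library per mouse. Per the submitters' processing notes and the study's methods, the authors mapped single-end reads to the mouse transcriptome (GRCm38/mm10) with HISAT and Bowtie2, computed gene FPKM in RSEM (version 1.2.31), and deposited a table of 24238 genes; 1 gene with an unreadable value was left out here. The authors also deposited the read count of each library after their read filtering, 12986441 to 13027028, and the percent of these reads that mapped. Reads mapping to several copies are shared out by RSEM, and whether strand was used is not given in the sources used here. FPKM are not counts, so no count model was run, the number of reads behind a gene is unknown, and precision was taken from the spread between mice. The study set aside 1 LowMg-HFD mouse for pancreas RNA without saying which, while in these files pancreas genes were high in NormMg-LFD replicate 3; all 19 were kept here, and LowMg-HFD replicate 4, picked from an earlier analysis of these data, was left out as an alternative.

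Values were read as log2(FPKM + 1). Genes whose group mean exceeded 8 FPKM in any diet group, with at least 4 mice of it above 8, entered a limma model (version 3.58.1, R version 4.3.3) that had an intensity trend, 1 mean per group and 5 contrasts; the method was tested on simulated data. P values are two-sided and Benjamini-Hochberg adjusted over 8336 genes at a threshold of 0.05. No batch is given in the labels. Collagen genes past the filter are named with their values or by range, and those below it by their level. The members, classes, pathway lists and cell type markers were chosen with earlier results of these data known. Alternatives were a pseudocount of 0.1, other filters, 2 scalings, leaving out each mouse, the groups compared alone, no trend and the replicate number as a block. Gene positions are from GENCODE M21 (44 of 44 members matched) and upstream sequences from RefSeq (35 of 44 members matched). Figures were drawn with matplotlib 3.10.9 in Python 3.11.15.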

Additional observations from a re-analysis of the deposited data

Results flagged for a closer look

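Within diet groups, 68 sets of values (17 members in 4 groups) were searched for a mouse apart from the rest of its group and 3 were found, where chance alone gives about 5% of sets. Col3a1 in LowMg-HFD replicate 2 was at 452.43 FPKM, against 321.59 to 343.13 in the other 4 mice. Col5a3 in LowMg-HFD replicate 5 was at 143.95 FPKM, against 113.41 to 119.07. Col1a1 in NormMg-LFD replicate 4 was at 74.33 FPKM, against 50.44 to 53.27 in the other 3 mice. Without LowMg-HFD replicate 2 the Col3a1 difference with low Mg2+ on HFD stayed past the threshold, and the rise with HFD at low Mg2+ did not (limma adjusted p = 0.117).

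The interaction for Col3a1, the Mg2+ effect on HFD minus that on LFD, was -1.10 on the log2 scale (SE 0.24, limma adjusted p = 0.0447), a call close to the threshold and lost in 19 of 27 alternatives, the replicate block (0.0725) and 14 of 19 omissions of 1 mouse among them: LowMg-HFD mice were below NormMg-HFD mice in 5 of 5, and the LFD groups overlapped.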

How the results depend on the processing

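For collagen genes called, leaving out each mouse in turn gave 7 to 10 calls for low Mg2+ on HFD, 0 to 0 for low Mg2+ on LFD, 12 to 13 for HFD at normal Mg2+, 9 to 12 for HFD at low Mg2+ and 0 to 4 for the interaction. The interaction call was also lost, giving 0, with a pseudocount of 0.1, a filter at FPKM 1, no filter, 18 mice with log2(FPKM + 1) over 3, and the replicate block. Among called log2 differences, leaving out 1 mouse kept the call in 603 cases and lost it in 43, and other settings kept it in 281 and lost it in 24; none changed sign. Signs flipped only in values that were not called. Those under other settings were Col18a1 with low Mg2+ on HFD (0.043 with median centring, 0.067 with quantile normalization), Col5a3 (0.019 with quantile normalization), and on LFD Col4a2 (0.050 with median centring, 0.022 with quantile normalization, 0.0021 with the replicate block) and Col5a3 (-0.041 with the replicate block). Leaving out 1 mouse, the ranges that crossed 0 were -0.067 to 0.030 for Col18a1 with low Mg2+ on HFD; on LFD -0.046 to 0.15 for Col4a1, -0.078 to 0.040 for Col4a2, -0.12 to 0.24 for Col5a3 and -0.23 to 0.046 for Col6a3; with HFD -0.061 to 0.29 for Col5a3 and -0.21 to 0.55 for Col6a5 at low Mg2+ and -0.95 to 0.17 for Col6a5 at normal Mg2+; and in the interaction -0.19 to 0.0068 for Col14a1, -0.055 to 0.30 for Col15a1 and -0.34 to 0.010 for Col5a3.

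The class differences moved by over 1 SD when the mean log2(FPKM + 1) took the place of the sum: fibrillar -0.45 with low Mg2+ on HFD and 0.59 with HFD at normal Mg2+; type IV 0.10 and -0.28, with -0.24 for low Mg2+ on LFD and 0.063 for HFD at low Mg2+; type VI -0.41 and 0.53, with 0.49 for HFD at low Mg2+. Without Col3a1 the fibrillar values were -0.70 and 0.92, and without Col6a2 the type VI value with HFD at normal Mg2+ was 1.05. The cause was not tested, except that equal weight for scarce members is how the mean is built. The labels do not say whether replicate numbers pair the mice. Deviations from group means correlated above 0.1 in 5 of 27 same-numbered pairs (median 0.0032, highest 0.339). This check runs over all genes at once and cannot show that no mice were linked. With the replicate block 10, 0, 13, 11 and 0 collagen genes were called in the order above; Col14a1 with low Mg2+ on HFD and Col18a1 with HFD at normal Mg2+ gained a call, and Col5a1 with low Mg2+ on HFD and Col3a1 in the interaction lost one. Precision is limited by 4 or 5 mice a group, and depth per gene is unknown.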

Other observations

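LowMg-LFD replicate 1 held the lowest value within its group for 11 of the 17 tested collagen genes. Its type VI sum was 114.7 FPKM, against 198.7 to 248.6 FPKM in the other 4 mice of the group, while its adipocyte markers summed to 18549 FPKM, the highest of all 19 mice, and its stromal progenitor markers to 281.2 FPKM, the lowest. Col5a3, at 149.7 FPKM, had its highest value of all mice in this library.

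Col6a5 ranged widely within LFD mice, at 5.9, 31.8, 69.5 and 27.9 FPKM in NormMg-LFD and at 11.8, 27.1, 4.9, 46.9 and 13.3 FPKM in LowMg-LFD, and less within HFD mice, at 17 to 27.1 FPKM in NormMg-HFD and 14.6 to 20.9 FPKM in LowMg-HFD. The highest mice were replicate 4 of each LFD group. No explanation was tested.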
